A study of Homo sapiens with 8 samples.

Results

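The genes described here are 38 genes of ribosome biogenesis and RNA polymerase I (Pol I), taken by symbol from a list. The list was chosen with earlier results of these data known, so its shares beside those of all genes are a description. The 38 genes were measured among 63677 genes per library by RNA-seq. They fall into 6 roles, which are 5 Pol I subunits, 6 Pol I initiation factors, 4 core proteins of small nucleolar ribonucleoproteins (snoRNPs), 6 multifunctional nucleolar proteins, 7 small subunit processing factors and 10 large subunit assembly factors. All 38 passed the filter on low counts in every comparison. The cells were the human multiple myeloma (MM) lines JJN3 and H929, treated for 24 h with THZ1 at 50 nM or with the vehicle DMSO, giving 2 libraries for each of JJN3 DMSO, JJN3 THZ1, H929 DMSO and H929 THZ1, 8 in all. THZ1 is a covalent inhibitor of CDK7, a kinase of the general transcription factor TFIIH that acts on RNA polymerase II. No other agent or engineered allele is named for any group, and each is an established tumor cell line.

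Ribosomes are assembled in the nucleolus. Pol I, brought to the ribosomal DNA by UBTF and the factor SL1, which holds TAF1A, TAF1B, TAF1C and TAF1D, and activated there by RRN3, transcribes a long precursor that carries the 18S, 5.8S and 28S ribosomal RNAs. Box C/D and H/ACA snoRNPs then modify the precursor, and processing factors cut it and assemble it with ribosomal proteins into the small and large subunits. The transcription factor MYC binds the E-box CACGTG and is a known activator of many of these genes, and plasma cells, which secrete large amounts of immunoglobulin, carry prominent nucleoli.

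Total counts ranged from 17476443 to 19194371 per library, so that the limit a count of 0 allows, 3 counts, lay between 0.156 and 0.172 CPM, the count scaled to the library total. The libraries labelled H929 stood apart by treatment label. Among these, lambda genes took 100% and 98% of the light chain V counts in the libraries labelled DMSO and 0.212% and 0.211% in those labelled THZ1. FGFR3, a gene activated by the translocation t(4;14), gave 45 and 285 counts in the libraries labelled DMSO, against 14117 and 13411 in those labelled THZ1, and the epithelial adhesion gene EPCAM had 2391 and 2249 against 1 and 6. SLAMF7, a myeloma surface antigen, gave 2 and 174 counts in the libraries labelled DMSO, against 8948 and 9173 in those labelled THZ1, so that the second DMSO library held some counts of genes that are high under the THZ1 label. For the H929 labels, the effect of treatment and the origin of the cells cannot be told apart, so these libraries are called by their labels. The 4 JJN3 libraries were alike in this respect, with a lambda share between 0.257% and 0.391%, and FGFR3 had at most 2 counts. The 9 plasma cell markers held 0.427% and 0.435% of counts in the JJN3 libraries with DMSO and 0.39% and 0.385% in those with THZ1. Of 10 markers of other cell types, 4 passed the filter in JJN3, where the summed count of the list was 1379 and 1455 with DMSO and 1502 and 1316 with THZ1, mostly on EPCAM, and PECAM1 and KRT19 were at 0.

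The JJN3 comparison asked which of these genes responded to CDK7 inhibition. A gene was called where the quasi-likelihood test of edgeR gave a Benjamini-Hochberg adjusted p under 0.05, over all genes, and the log2 fold change was beyond 0.5, as the study set them. Standard errors (SE) are those of the log2 fold change. In JJN3, 22 of the 38 genes fell after THZ1 and 0 rose (57.9% and 0%), where 21.3% of all 13984 genes tested were called lower and 20.6% higher. Of the 16 genes not called, 10 had an edgeR adjusted p under 0.05 with a change inside the limit, 8 of them below 0 and 2 above. At an unadjusted p under 0.05 and with no limit on the change, 2 genes were above 0, and with DESeq2 the number that rose was also 0. The median log2 fold change of the 38 genes was -0.60 (range -1.45 to 0.41), against -0.00 for all genes tested. After scaling, both THZ1 libraries lay below both DMSO libraries for 81.6% of the 38 genes and above them for 13.2%. For all genes tested these shares were 41.4% and 38.5%, so that a lack of overlap is common with 2 libraries a group. Of the 9 plasma cell markers, 5 fell and 0 rose in the same comparison (55.6%, median -0.55). SLAMF7 fell, with 372 and 374 counts with DMSO against 99 and 109 with THZ1. Log2 fold changes above 0, up to 0.49, were found for 2 of the 9. PRDM1 was among these, with 3377 and 3051 counts with DMSO against 4011 and 3883 with THZ1. Of the 3 myeloma translocation genes tested, 2 fell. The part of these marker genes in the result was not tested. Together the 38 genes held 0.998% and 1.02% of all counts with DMSO and 0.671% and 0.655% with THZ1, and the 2 treatments did not overlap. These are relative levels in bulk RNA, in which fewer cells of a type and less RNA per cell cannot be told apart.

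**Figure D1:**
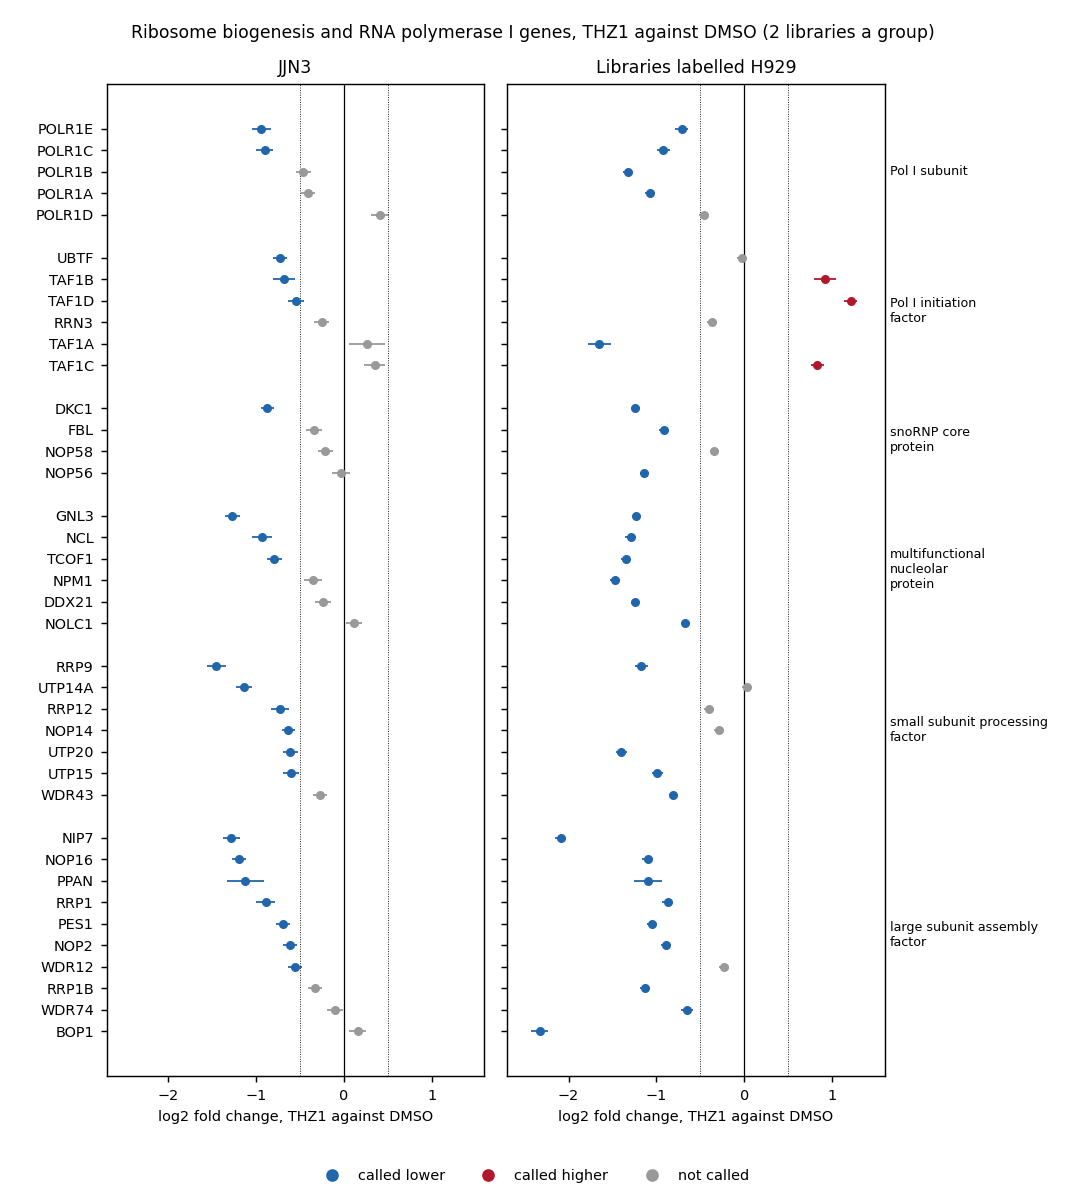
Log2 fold change (THZ1 against DMSO) of each of the 38 genes, grouped by role, in JJN3 (left) and in the libraries labelled H929 (right); points are edgeR estimates, bars their standard errors, and dotted lines the limits at 0.5 on either side of 0. In JJN3, 22 genes are called lower and 0 higher, and under the H929 labels 27 lower and 3 higher, all 3 of them Pol I initiation factors. Of all genes tested, 21.3% are called lower and 20.6% higher in JJN3, and 32.6% and 33.1% under the H929 labels.

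Promoter windows from the RefSeq table (build GRCh38.p14, 250 bases before to 50 after each gene's start) were found for 31 of the 38 genes. They were searched for the E-box letters CACGTG, which read the same on both strands. The letters were present in 8 of the 31 windows (25.8%), those of FBL, NOP14, RRP9, UTP20, UTP14A, WDR43, NOP2 and PES1, and in 7.26% of all 35116 windows of the table. Within 50 bases of the start on either side, a span set after the positions were seen, 7 of the 31 windows held it (22.6%), against 2.82% of all windows. For the 38 genes 1 window per symbol was used. The 35116 windows were all counted, without a limit to 1 per symbol or to the genes tested here, so the shares are not like for like. POLR1E, NOP58, NOLC1, TCOF1, RRP12, RRP1B and BOP1 were not in the table. Stretches of 130 bases, from 100 before the start to the first 30 transcribed bases, are shown for the 6 genes whose E-box lies inside that stretch, because it sits close to the start in each. They are written 5′ to 3′ on the strand of the gene with the E-box in capitals.
RRP9, chr3:51941875-51942004, minus strand: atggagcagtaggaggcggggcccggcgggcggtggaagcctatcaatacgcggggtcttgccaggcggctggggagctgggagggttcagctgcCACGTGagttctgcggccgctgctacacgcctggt
UTP20, chr12:101280005-101280134, plus strand: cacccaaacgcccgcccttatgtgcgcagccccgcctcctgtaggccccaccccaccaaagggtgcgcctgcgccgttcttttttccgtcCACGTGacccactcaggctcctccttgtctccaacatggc
WDR43, chr2:28894567-28894696, plus strand: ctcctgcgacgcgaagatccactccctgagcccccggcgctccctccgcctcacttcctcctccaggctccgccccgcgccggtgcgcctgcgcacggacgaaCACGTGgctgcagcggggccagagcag
FBL, chr19:39846350-39846479, minus strand: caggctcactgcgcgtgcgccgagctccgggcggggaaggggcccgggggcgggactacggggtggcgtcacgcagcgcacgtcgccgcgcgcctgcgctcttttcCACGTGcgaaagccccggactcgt
PES1, chr22:30591881-30592010, minus strand: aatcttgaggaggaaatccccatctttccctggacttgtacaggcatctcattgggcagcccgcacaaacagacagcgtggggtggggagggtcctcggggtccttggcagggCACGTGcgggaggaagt
NOP14, chr4:2963377-2963506, minus strand: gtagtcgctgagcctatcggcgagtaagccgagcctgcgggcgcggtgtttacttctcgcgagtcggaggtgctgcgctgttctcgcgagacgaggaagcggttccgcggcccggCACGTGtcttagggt
The first letter of the E-box lies 5 bases before the start in RRP9 and 10 before it in UTP20, and 3, 6, 13 and 15 bases after the first transcribed base in WDR43, FBL, PES1 and NOP14. In JJN3, 6 of the 8 genes with an E-box in the window fell, as did 13 of the 23 with a window that lacks it. Of the 7 genes with no window in the table, 3 fell. The median log2 fold changes of these groups were -0.62, -0.56 and -0.33 in this order, and no test of these differences was made. Of all genes tested, 21.3% were called lower, and they were not split by the E-box. The calls beside the E-box are a description, and no binding was measured.

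MYC itself, whose product binds such an E-box, gave 22083 and 22167 counts in the DMSO libraries against 10047 and 12233 in the THZ1 libraries in JJN3. Both libraries with THZ1 lay below both with DMSO. The log2 fold change of MYC was -0.80 (SE 0.0999, edgeR adjusted p = 5.13e-05). Under the H929 labels MYC gave 43929 and 41711 counts in the DMSO libraries against 2577 and 2513 in the THZ1 libraries.

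Of the 5 Pol I subunits, POLR1C and POLR1E fell in JJN3 and none rose (40% lower, against 21.3% of all genes tested). POLR1E, which encodes a subunit of the dimer that helps Pol I initiate (GRCh37 chromosome 9, 37485945 to 37503694), gave 1130 and 1244 counts in the DMSO libraries against 469 and 620 in the THZ1 libraries. Its libraries with THZ1 were both below those with DMSO, at a log2 fold change of -0.94 (SE 0.106, edgeR adjusted p = 2.56e-05). POLR1C, a subunit shared with Pol III, had a log2 fold change of -0.90, with 18.3% of its exonic bases inside other annotated genes. The 2 largest subunits, POLR1A and POLR1B, which form the catalytic centre, had log2 fold changes of -0.41 and -0.46 that passed the adjusted p but not the limit on the fold change. POLR1D, the other subunit shared with Pol III and the subunit gene with the most counts, gave 2373 and 2410 counts in the DMSO libraries against 2949 and 2578 in the THZ1 libraries. Its log2 fold change was 0.41 (SE 0.103), inside the limit, and was 0.57 without the second THZ1 library, which would then be called higher.

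Of the 6 Pol I initiation factors, 3 fell in JJN3 and 0 rose (50% lower, against 21.3% of all genes tested). UBTF, which encodes the HMG-box protein that binds the ribosomal DNA and has the most counts of this role (chromosome 17, 42282401 to 42298994), gave 5920 and 5709 counts in the DMSO libraries against 2869 and 3280 in the THZ1 libraries. The 2 libraries with THZ1 were well below both with DMSO, and the log2 fold change was -0.73 (SE 0.0808, edgeR adjusted p = 2.27e-05). The SL1 subunit genes did not move together. TAF1B (chromosome 2, 9983572 to 10074545) gave 409 and 360 counts in the DMSO libraries against 192 and 227 in the THZ1 libraries, a log2 fold change of -0.68 (SE 0.128, edgeR adjusted p = 0.000835). TAF1D (chromosome 11, 93463114 to 93517557) gave 3746 and 4084 counts in the DMSO libraries against 2403 and 2289 in the THZ1 libraries, and its log2 fold change of -0.54 lay close to the limit. Other genes cover 16.5% of its exonic bases. It was -0.50 without the second DMSO library and -0.44 without the second THZ1 library, and neither passed the limit. TAF1C gave 442 and 473 counts in the DMSO libraries against 539 and 479 in the THZ1 libraries, with a log2 fold change of 0.35 that was not called. TAF1A had few counts, 79 and 73 with DMSO and 76 and 83 with THZ1, and its log2 fold change of 0.26 had a standard error of 0.206. RRN3, which links Pol I to the promoter, had a log2 fold change of -0.25, and reads shared with its 3 pseudogene symbols make its count uncertain.

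Of the 4 snoRNP core proteins, only DKC1 was called in JJN3. The share called lower, 25%, was near the 21.3% of all genes tested. DKC1, the pseudouridine synthase of H/ACA snoRNPs and telomerase (chromosome X, 153991017 to 154005964), gave 5047 and 5077 counts in the DMSO libraries against 2329 and 2499 in the THZ1 libraries. The treatments did not overlap, at a log2 fold change of -0.87 (SE 0.078, edgeR adjusted p = 5.64e-06). The 3 genes of box C/D snoRNPs differed less between treatments. FBL, which encodes the methyltransferase fibrillarin, had a log2 fold change of -0.34 and NOP58 one of -0.21. NOP56, the gene of this role with the most counts, gave 13969 and 15260 counts in the DMSO libraries against 12737 and 12294 in the THZ1 libraries. Relative to the other genes of each library its levels overlapped, and its log2 fold change was -0.03 (SE 0.103, edgeR adjusted p = 0.84).

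Of the 6 multifunctional nucleolar proteins, GNL3, NCL and TCOF1 fell in JJN3 (50% lower, against 21.3% of all genes tested). GNL3, which encodes the GTP-binding protein nucleostemin (chromosome 3, 52715172 to 52728513), gave 9641 and 9794 counts in the DMSO libraries against 3310 and 3749 in the THZ1 libraries. Its libraries with THZ1 were at 0.415 of the DMSO level, a log2 fold change of -1.27 (SE 0.0836, edgeR adjusted p = 1.08e-06). NCL, which encodes the abundant RNA-binding protein nucleolin and had the highest counts of all 38 genes (chromosome 2, 232318242 to 232348352), gave 45542 and 43944 counts in the DMSO libraries against 20814 and 20155 in the THZ1 libraries. The log2 fold change of NCL was -0.93 (SE 0.112, edgeR adjusted p = 4.12e-05), and the treatments did not overlap. TCOF1, which encodes treacle, a partner of UBTF and Pol I, had one of -0.79. NPM1, which encodes the histone chaperone nucleophosmin, and the helicase gene DDX21 had log2 fold changes of -0.35 and -0.24, and NOLC1, a scaffold for snoRNPs, had 0.12. Counting kept uniquely mapped reads, and NPM1 has 45 pseudogene symbols in the table, so its count is uncertain.

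Of the 7 small subunit processing factors, 6 fell in JJN3 and 0 rose (85.7% lower, against 21.3% of all genes tested). RRP9, which encodes a protein of the U3 snoRNP (chromosome 3, 51967445 to 51975920), had the largest fall of the 38 genes. It gave 1086 and 1193 counts in the DMSO libraries against 315 and 414 in the THZ1 libraries, and the treatments lay far apart. The log2 fold change of RRP9 was -1.45 (SE 0.108, edgeR adjusted p = 1.99e-06), which is 0.365 of the DMSO level. UTP14A had a log2 fold change of -1.14, RRP12 one of -0.73, NOP14 one of -0.63, UTP20 one of -0.61 and UTP15 one of -0.60. UTP14A, UTP15, UTP20 and NOP14 belong to the small subunit processome that forms on the precursor, and RRP12 acts in later steps and export. NOP14 shares 20.7% of its exonic bases with an antisense gene. WDR43, another processome gene and the one of this role with the most counts, gave 3473 and 3354 counts in the DMSO libraries against 2324 and 2621 in the THZ1 libraries. Its log2 fold change of -0.27 (SE 0.0777, edgeR adjusted p = 0.0106) was inside the limit.

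Of the 10 large subunit assembly factors, 7 fell in JJN3 and 0 rose (70% lower, against 21.3% of all genes tested). NIP7 (chromosome 16, 69371899 to 69377009), whose product acts in the processing of ribosomal RNA precursors, gave 2078 and 2236 counts in the DMSO libraries against 686 and 874 in the THZ1 libraries. The log2 fold change of NIP7 was -1.28 (SE 0.0934, edgeR adjusted p = 1.77e-06), and the treatments did not overlap. NOP16 had a log2 fold change of -1.19, PPAN one of -1.12, RRP1 one of -0.89 and NOP2, a ribosomal RNA methyltransferase gene, one of -0.61. The PeBoW complex, which is needed to process the large subunit RNA, is encoded by PES1, BOP1 and WDR12, and its genes differed in JJN3. PES1, the gene of this role with the most counts, gave 3906 and 4034 counts in the DMSO libraries against 2111 and 2194 in the THZ1 libraries, a log2 fold change of -0.69 (SE 0.0789, edgeR adjusted p = 2.86e-05). WDR12 had a log2 fold change of -0.56. BOP1 gave 571 and 589 counts in the DMSO libraries against 521 and 612 in the THZ1 libraries, and its log2 fold change was 0.16 (SE 0.0967, edgeR adjusted p = 0.183). RRP1B and WDR74 were not called, at -0.33 and -0.10. PPAN, with at most 135 counts in JJN3, shares 47.6% of its exonic bases with the readthrough gene PPAN-P2RY11, and NOP2 shares 54.4% with another gene on the same strand, so both counts are uncertain. Other annotated genes also cover 18.4% of the exonic bases of NIP7, which lie in COG8 on the opposite strand, 22.3% of those of WDR74 and 18.6% of those of NOP16, and NIP7 has 3 pseudogene symbols. Their counts are uncertain too, since the use of strand is not stated.

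**Figure D2:**
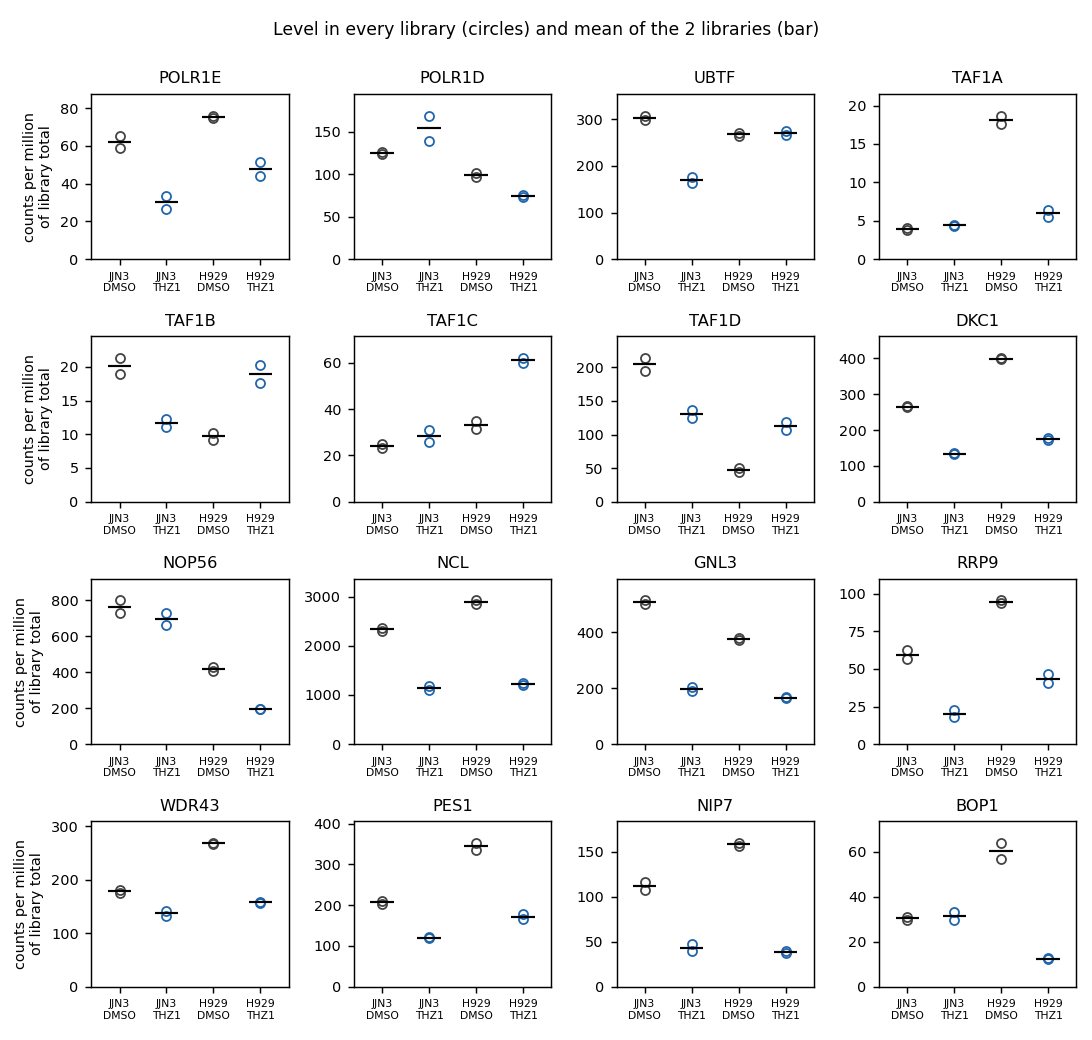
CPM, as a share of the library total, for 16 genes in each of the 8 libraries (circles, with a bar at the mean of the 2 libraries of a group), on axes that start at 0. GNL3, NCL, RRP9 and NIP7 are lower in both THZ1 libraries of JJN3 than in both DMSO libraries, while TAF1B and TAF1D move the opposite way under the H929 THZ1 label.

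Levels between genes were compared as RPKM, which is CPM per kilobase of exon, with exon lengths from an annotation that may differ from that of the authors. The order of genes in RPKM depends on these lengths, which were 8919 bases for NCL, 8311 for NPM1, 3238 for GNL3 and 2138 for FBL. By mean CPM in JJN3 with DMSO, NCL at 2300 and NPM1 at 1130 lay above FBL at 596 and GNL3 at 500. Whether these lengths match the transcripts made in these cells was not tested. In JJN3 with DMSO the RPKM levels of the 38 genes ran from 279 ± 11.3 for FBL (SD, n = 2) to 1.35 ± 0.0852 for TAF1A. NCL came next at 258 ± 8.37, and GNL3, NOP56 and NOLC1, at 155 ± 0.617, 152 ± 8.41 and 151 ± 2.8, did not differ beyond the spread of NOP56. NPM1 at 136 ± 3.07 and NOP58 at 134 ± 7.25 followed, likewise within their spread, and then came a gap to PES1 at 45.2 ± 0.707. The SL1 genes TAF1A, TAF1B and TAF1C lay at the low end, between 1.35 and 4.98. With THZ1 the RPKM level of GNL3 was 63.5 ± 1.32 and that of NCL 134 ± 12.1, while NOP56 was at 148 ± 13.6 and NOLC1 at 163 ± 6.21, so that GNL3 stood below NOP56, NOLC1, NPM1 and NOP58.

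**Figure D3:**
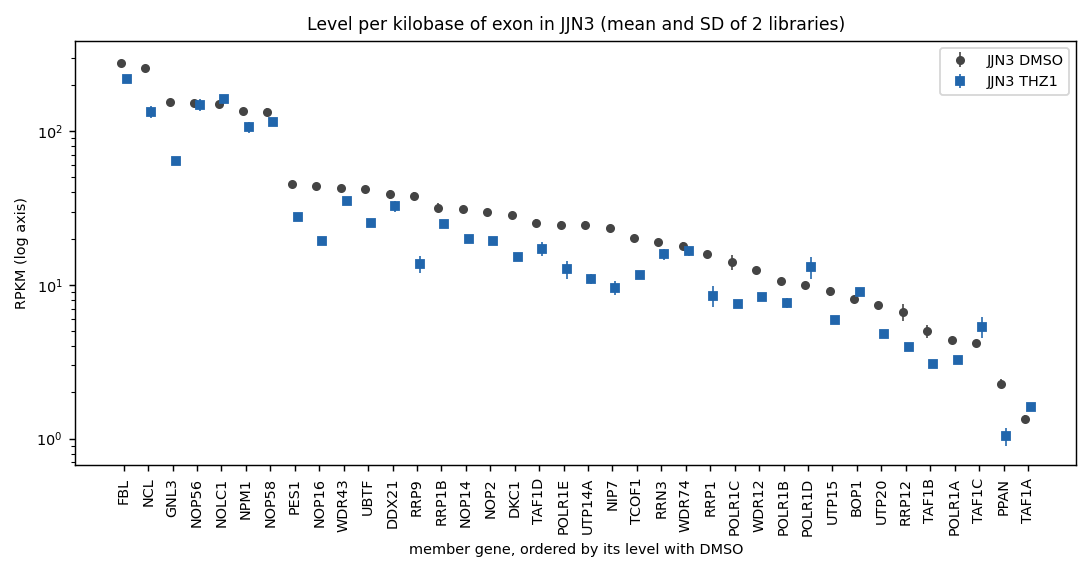
RPKM on a log axis (mean of 2 libraries, bars are SD) for the 38 genes in JJN3 with DMSO (circles) and THZ1 (squares), ordered by the level with DMSO. In RPKM, whose order depends on the exon lengths used, FBL is highest at 279 with DMSO and TAF1A lowest at 1.35. GNL3 drops from 155 to 63.5 while NOLC1 stays near 151 to 163.

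Other genes of the pathway, taken from lists of symbols, were counted in JJN3 in the same fit, beside the 21.3% of all genes called lower and 20.6% called higher. Of 47 other small subunit factors tested, 30 fell and 2 rose (63.8% and 4.26%, median log2 fold change -0.66), from EMG1, an 18S methyltransferase gene, at -1.58 to RIOK3 at 0.63. Of 54 other large subunit factors, 26 fell and 1 rose (48.1% and 1.85%, median -0.48), from MRTO4 at -1.39 to DDX24 at 0.64. Of 14 genes of the nuclear RNA exosome, which trims ribosomal RNA precursors, 9 fell and 0 rose (64.3%, median -0.88), led by EXOSC4 at -1.45. Of 14 other snoRNP proteins and assembly factors, 3 fell and 0 rose (21.4%, median -0.18), led by the AAA+ ATPase gene RUVBL1 at -1.25. That share was close to the 21.3% of all genes.

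The remaining polymerase genes moved in both directions in JJN3. Of 8 other Pol I and shared polymerase subunits, 3 fell and 1 rose (37.5% and 12.5%), where 21.3% and 20.6% of all genes tested did. They ranged from CD3EAP, a partner of POLR1E in the initiation dimer, at -1.37 to TWISTNB, another Pol I subunit gene, at 0.58. Of 4 genes listed as Pol I regulators and termination factors, 3 fell and 1 rose (75% and 25%). MYBBP1A, TTF1 and NOL12 fell, of which NOL12 is a ribosomal RNA processing gene rather than a Pol I factor. BAZ2A, which encodes the large subunit of the nucleolar remodeling complex that silences ribosomal DNA, gave 2446 and 2265 counts in the DMSO libraries against 4182 and 4129 in the THZ1 libraries. It rose by a log2 fold change of 1.02 (SE 0.0878, edgeR adjusted p = 4.74e-06), with no overlap between the treatments.

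The cytosolic ribosomal proteins, the other components of the ribosome, had a different count. Of 79 genes tested, 5 fell and 10 rose (6.33% and 12.7%), both below the shares of all genes, and the median log2 fold change was 0.06. They ranged from RPS26 at -0.89 to RPS10 at 0.84. Many ribosomal protein genes have near-identical processed copies, so their counts are uncertain. Together they held 3.9% and 4.2% of counts with DMSO and 4.25% and 3.66% with THZ1 in JJN3, which overlapped.

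**Figure D4:**
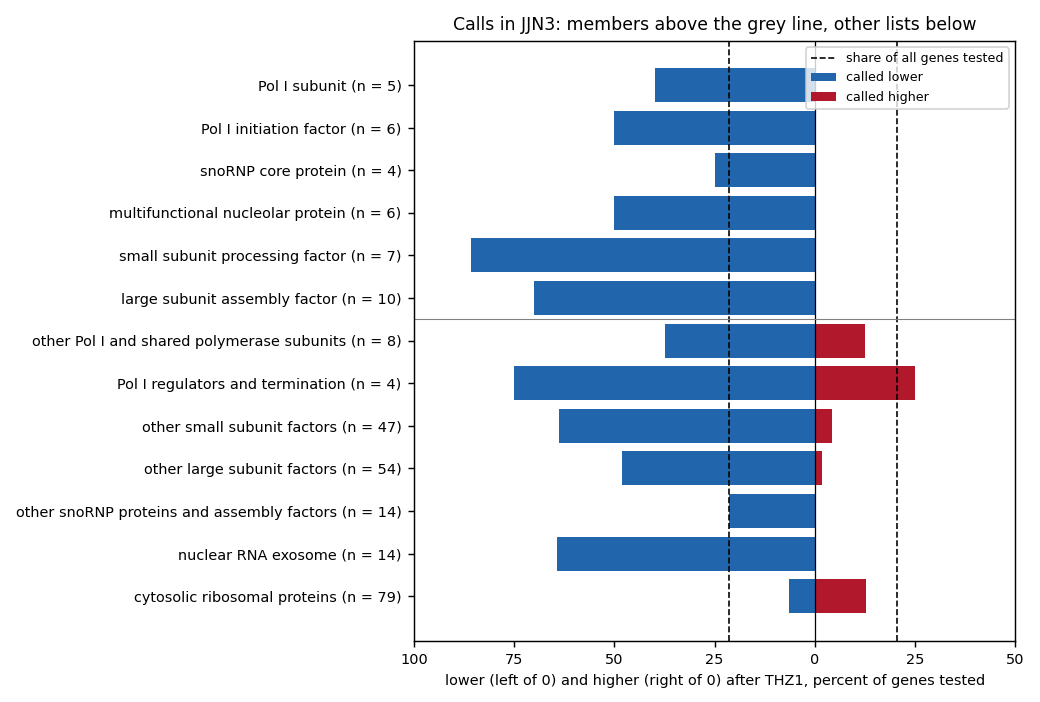
Share of the genes tested in each list that were called lower (left of 0) or higher (right of 0) after THZ1 in JJN3, with the shares of all genes tested, 21.3% and 20.6%, as dashed lines. Small subunit processing factors reach 85.7% lower and the cytosolic ribosomal proteins 6.33%.

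Features annotated on ribosomal RNA-like sequence were counted as well, since they lie nearest to the product of Pol I. Of 11 listed, 5 passed the filter in JJN3, and all 5 rose, with a median log2 fold change of 5.12. Of all genes tested, 20.6% were called higher. RNA5-8SP5 had 0 and 0 counts with DMSO against 24 and 10 with THZ1, and RNA5-8SP3 had 3 and 4 against 49 and 29. Both passed the filter only through the THZ1 libraries, where they are high, so their direction was set by it. The count and the median of the features are a description. MIR663A, listed here with these features, gave 11 and 18 counts in the DMSO libraries against 1325 and 759 in the THZ1 libraries, and RNA5-8SP6, a 5.8S pseudogene, gave 30 and 26 counts in the DMSO libraries against 1148 and 534 in the THZ1 libraries. These features have repeated near-identical copies and make up at most 0.0167% of counts, and the 18S, 28S and 5.8S genes listed were at 0, so they are no measure of ribosomal RNA. The 2 THZ1 libraries of JJN3 differed from each other, with summed counts of 2911 and 1509 against 65 and 74 with DMSO.

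Under the H929 labels, 27 of the 38 genes were lower and 3 higher with THZ1 than with DMSO (71.1% and 7.89%), where 32.6% of all 14863 genes tested were called lower and 33.1% higher. The median log2 fold change was -0.96 (range -2.33 to 1.21), against 0.01 for all genes. Both libraries labelled THZ1 lay below both labelled DMSO for 86.8% of the 38 genes and above them for 10.5%. For all genes tested these shares were 45.5% and 45.5%, so a lack of overlap is common here too. The 38 genes held 1.14% and 1.13% of counts in the libraries labelled DMSO, against 0.598% and 0.588% in those labelled THZ1. In the same comparison 7 of the 9 plasma cell markers were higher and 2 lower, and they held 0.337% and 0.363% of counts under the DMSO label against 1.22% under the THZ1 label in both libraries. Without the second H929 DMSO library, 27 genes were again lower and 3 higher.

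All 6 multifunctional nucleolar proteins, 9 of 10 large subunit assembly factors, 4 of 5 Pol I subunits, 3 of 4 snoRNP core proteins and 4 of 7 small subunit processing factors were lower under the H929 THZ1 label. The share called lower among all genes tested was 32.6% in this comparison. The nucleolar proteins had log2 fold changes of -1.47 for NPM1, -1.35 for TCOF1, -1.29 for NCL, -1.24 for DDX21, -1.23 for GNL3 and -0.67 for NOLC1. The snoRNP genes DKC1, NOP56 and FBL were at -1.24, -1.14 and -0.91, and NOP58 at -0.34 was not called. Of the Pol I subunits, POLR1B was at -1.32, POLR1A at -1.07, POLR1C at -0.92 and POLR1E at -0.71, with POLR1D at -0.46 not called.

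BOP1 had the largest fall of the 38 genes under the H929 labels. It gave 1198 and 1023 counts in the libraries labelled DMSO, against 231 and 224 in those labelled THZ1, and its log2 fold change was -2.33 (SE 0.0932, edgeR adjusted p = 1.7e-12). NIP7 gave 2942 and 2888 counts in the libraries labelled DMSO, against 693 and 716 in those labelled THZ1, a log2 fold change of -2.09 (SE 0.0602, edgeR adjusted p = 3.59e-14). For both genes the labels did not overlap. The other large subunit factors called lower were NOP16 and PPAN at -1.10, RRP1B at -1.13, PES1 at -1.05, NOP2 at -0.89, RRP1 at -0.87 and WDR74 at -0.65, and WDR12 at -0.23 was not called. Of the small subunit factors, UTP20 was at -1.40, RRP9 at -1.17, UTP15 at -0.99 and WDR43 at -0.81, while RRP12 at -0.40, NOP14 at -0.29 and UTP14A at 0.03 were not called.

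The Pol I initiation factors split under the H929 labels. TAF1D gave 835 and 895 counts in the libraries labelled DMSO, against 1976 and 2153 in those labelled THZ1, a log2 fold change of 1.21 (SE 0.0702, edgeR adjusted p = 1.63e-10). TAF1B had 172 and 184 counts against 372 and 322, a log2 fold change of 0.92 (SE 0.121, edgeR adjusted p = 3.63e-06). TAF1C had 593 and 629 counts against 1108 and 1135, a log2 fold change of 0.83 (SE 0.0738, edgeR adjusted p = 3.37e-08). All 3 were higher in both libraries labelled THZ1. TAF1A, the other SL1 gene of the list, went the other way, with 350 and 317 counts in the libraries labelled DMSO, against 101 and 118 in those labelled THZ1, a log2 fold change of -1.65 (SE 0.132, edgeR adjusted p = 8.61e-09). RRN3 at -0.37 and UBTF at -0.03 were not called, and UBTF had 5065 and 4783 counts against 5049 and 4881.

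The 2 sets of calls, which come from separate libraries, are set side by side here. Both comparisons called 15 genes lower, POLR1C, POLR1E, DKC1, NCL, TCOF1, GNL3, RRP9, UTP15, UTP20, NOP2, NOP16, PES1, RRP1, PPAN and NIP7. These are 39.5% of the 38 genes, 68.2% of those lower in JJN3 and 55.6% of those lower under the H929 labels, and 10.1% of the 12787 genes tested in both comparisons were lower in both. POLR1D, RRN3 and NOP58 were called in neither. UBTF, NOP14, RRP12, UTP14A and WDR12 were called lower in JJN3 and not under the H929 labels, and TAF1B and TAF1D were called in opposite directions.

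An interaction term in a fit of all 8 libraries tested the difference in response. The log2 fold change was higher in JJN3 for 16 genes and lower for 4, where 25.5% of all 16122 genes tested were called higher and 28.1% lower. Of the 16, 15 were called lower under the H929 labels, and the largest differences were those of BOP1 (2.48, SE 0.134, edgeR adjusted p = 1.99e-10) and TAF1A (1.90, SE 0.23, edgeR adjusted p = 2.36e-06). The 4 with a lower log2 fold change in JJN3 were TAF1D at -1.76, TAF1B at -1.61, UTP14A at -1.18 and UBTF at -0.70. Of the genes called in JJN3 and not under the H929 labels, UBTF and UTP14A passed both limits, while NOP14 at -0.35, RRP12 at -0.34 and WDR12 at -0.34 had an edgeR adjusted p under 0.05 and a difference inside the limit of 0.5. By the adjusted p alone, 29 of the 38 genes differed, as did 9992 of all 16122 genes tested. For 18 genes in all, among them GNL3 (-0.05, SE 0.0922) and POLR1C (0.01, SE 0.128), the difference was not called. This test rests on the H929 labels, where the effect of treatment and the origin of the cells cannot be told apart.

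Among the other lists, 26 of 47 other small subunit factors were lower under the H929 THZ1 label and 1 higher, as were 28 and 6 of 54 other large subunit factors, 6 and 0 of 14 exosome genes and 29 and 11 of 79 cytosolic ribosomal proteins. The shares called lower were 55.3%, 51.9%, 42.9% and 36.7% in this order, where 32.6% of all genes were called lower. On this side the ribosomal proteins lay near the share of all genes. The shares called higher were 2.13%, 11.1%, 0% and 13.9%, all below the 33.1% of all genes. Of 8 other Pol I and shared polymerase subunits, 6 were lower and 0 higher (75% lower). Of 4 Pol I regulators and termination factors, 1 was lower (25%), and of 14 other snoRNP proteins and assembly factors 6 were (42.9%). The 4 ribosomal RNA-like features that passed the filter were all lower there, with a median log2 fold change of -1.60.

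Without the drug, JJN3 DMSO and the libraries labelled H929 DMSO were compared in the same fit. Of the 38 genes, 15 were lower in JJN3 and 5 higher, where 30.8% of all 16122 genes tested were called lower and 30.7% higher, and the median log2 difference was -0.40. TAF1A differed most on the lower side, at a log2 difference of -2.22 (SE 0.149, edgeR adjusted p = 1.13e-09), followed by POLR1A at -1.09, POLR1B at -1.08 and BOP1 at -1.02. TAF1D was the gene furthest on the higher side, at 2.09 (SE 0.0885, edgeR adjusted p = 4.12e-12), and TAF1B, NOP56, POLR1C and NOP16 were higher at 1.03, 0.84, 0.67 and 0.67. These are 39.5% and 13.2% of the 38 genes. MYC differed by -1.04 on the log2 scale in the same comparison.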

How the data were processed

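RNA of JJN3 and H929 cells was sequenced from 8 libraries in 4 groups of 2. Reads were aligned to hg19 by the authors (STAR 2.5.2a, uniquely mapped reads only), and the raw counts of featureCounts per Ensembl gene were deposited. The authors also deposited a DESeq2 table for each line with p-values and fold changes, which were not used as results. Gene symbols were read from the table of JJN3. Whether counting used strand is not given in the sources used here. Groups and replicate numbers came from the sample labels. Nothing says that libraries came from separate cultures, so p-values measure the spread between these libraries, which may be technical. Depth was 17476443 to 19194371 counts per library, and limits from counts cover counting error only.

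Counts were tested with edgeR 4.0.16 in R 4.3.3 by the quasi-likelihood test, after TMM scaling and filterByExpr, with Benjamini-Hochberg adjusted p-values over all genes, within each line for THZ1 against DMSO and over all 8 libraries for the interaction and for the DMSO groups. Calls required an adjusted p under 0.05 and an absolute log2 fold change over 0.5. The scripts were tested on simulated data. The alternatives changed the tool (DESeq2 1.42.0), the scaling (size factors of DESeq2, or total counts), the filter (none, or at least 1 CPM in 2 libraries), the samples fitted (all 8, or each left out), the limit on the fold change and, as a block, the replicate number. With 2 libraries against 2, an exact permutation test cannot go below 0.333, so calls rest on the model fitted across genes.

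The 38 genes, their roles and the other lists were chosen with earlier results of these data known. Where a symbol had several identifiers (BOP1, DKC1), the one with the highest summed count was used. Positions and exon lengths came from GENCODE on GRCh37, which may differ from the authors' annotation. Counts of every library were given, per role, for the called gene with the largest fall in JJN3, for that with the largest rise, where there was one, and for the gene with the most counts. They were also given for genes called in opposite directions and for the 3 largest falls and rises under the H929 labels. In each pathway list, the called gene with the largest fall and the one with the largest rise could be named, and MYC was always named. Other genes were named with their values after these were seen. The plasma cell, other cell type and translocation markers served to check the labels.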

Additional observations from a re-analysis of the deposited data

Results flagged for a closer look

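The change with THZ1 in JJN3 differed from that under the H929 labels, by edgeR's interaction test over all 8 libraries, for 20 of the 38 genes and for MYC, at an adjusted p under 0.05 and a difference beyond 0.5. By the adjusted p alone, 29 of the 38 genes differed, as did 9992 of all 16122 genes tested. At both limits, 25.5% of those 16122 genes were called higher in JJN3 and 28.1% lower. The values are log2 fold changes in JJN3 minus those under the H929 labels. BOP1 differed by 2.48, TAF1A by 1.90, NPM1 by 1.11, NOP56 by 1.10, DDX21 by 0.99, POLR1B by 0.86 and POLR1D by 0.86. NIP7 differed by 0.81, RRP1B by 0.79, UTP20 by 0.78, NOLC1 by 0.77, POLR1A by 0.65, FBL by 0.56, TCOF1 by 0.55, WDR74 by 0.54 and WDR43 by 0.53. On the other side, TAF1D differed by -1.76, TAF1B by -1.61, UTP14A by -1.18 and UBTF by -0.70. MYC differed by 3.31. In 7 of the 20 genes the log2 fold changes had opposite signs, and only TAF1B and TAF1D were called in both comparisons with opposite signs. The libraries labelled H929 differ by treatment label in light chain, FGFR3 and EPCAM counts, so that the effect of treatment and the origin of the cells cannot be told apart in these values. With 2 libraries a group, no library could be tested as standing apart from its group.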

How the results depend on the processing

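The count of genes that fell in JJN3, 22, was 30 with the adjusted p alone and 6 with a log2 fold change beyond 1. At these limits 30.1% and 7.19% of all genes tested were lower. The count that rose in JJN3, 0, was 2 with the adjusted p alone, where 28.9% of all genes tested were higher. When each library was left out, the median log2 fold change of the 38 genes lay between -0.64 and -0.56. Without the second THZ1 library, POLR1D was at 0.57 and TAF1C at 0.50. The median of the 38 genes in JJN3 moved from -0.60 to -0.70 with total counts, which shifted the median of all genes by -0.10. With a log2 fold change beyond 1, the genes higher under the H929 THZ1 label went from 3 to 1, and those with a higher response in JJN3 from 16 to 4. The genes with a lower response in JJN3 went from 4 to 8 with the adjusted p alone. For the DMSO groups, the genes lower in JJN3 went from 15 to 25 with the adjusted p alone and to 4 beyond 1, and those higher from 5 to 9 and to 2. Fewer or more genes pass by the construction of these limits, among the 38 genes and among all genes alike. The counts at other limits for the H929 labels, the interaction and the DMSO groups are therefore no comparison with all genes. Labels give each line replicates 1 and 2, but nothing ties equal numbers to a batch, and same-numbered libraries deviated with correlations of 0.00909 in JJN3 and -0.0188 under the H929 labels. With the replicate block, 22 genes were lower in JJN3 and 27 under the H929 labels, as without it. Of single genes, TAF1D was no longer called in JJN3 without the second DMSO library (-0.50) or the second THZ1 library (-0.44), and POLR1A (-0.51) and POLR1B (-0.56) were called with total counts, as was POLR1B with no filter (-0.50) and without the second THZ1 library (-0.54). No gene's call reversed under these alternatives. TAF1A in JJN3 (at most 83 counts per library) and PPAN limit the precision most.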
